A study of Mus musculus with 36 samples.

Results

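KO-TRAMP mice carry 2 genetic changes at once: Elac2 is deleted in the prostate, and the prostate expresses the SV40 T antigens that drive tumours in the TRAMP model. The question here is how the microRNAs of this tissue differed between 10 weeks and 30 weeks of age. Small RNA was sequenced from 3 libraries at 10 weeks (libraries 7, 8 and 9) and 3 at 30 weeks (libraries 16, 17 and 18). They were selected as the only KO-TRAMP libraries among the 36 of the series and were assigned to an age by the table that holds them, not by any measured value. All 6 libraries come from ventral and lateral prostate lobes of male mice of the strain given as C56NL/6N, with the genotype ELAC2 -/- and TRAMP +/-. A probasin promoter drives both Cre and the T antigens, so the deletion and the transgene are both aimed at prostate epithelium and not at the stroma, vessels and leukocytes of the same lobes. The other lines used for comparison were WT-TRAMP (ELAC2+/+, TRAMP +/-), KO (ELAC2-/-, no transgene) and A537T-TRAMP (homozygous ELAC2 A537T in all tissues, TRAMP +/-), each with 3 libraries at 10 and 3 at 30 weeks. WT (ELAC2+/+) and A537T (homozygous ELAC2 A537T), both without the transgene and with as many libraries at each age, enter only the ranges, the plot and the fit that take in all 36 libraries. The study describes its replicates as biological and its microRNA comparisons as between mice. The microRNA tables hold neither Elac2 mRNA nor the transgene, so the genotype labels could not be checked against them.

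ELAC2 is the endonuclease that trims the 3′ ends of tRNA precursors, and it can also cut other structured transcripts into small RNAs. A mature microRNA guides Argonaute to messenger RNAs, mostly through its seed, bases 2 to 8, so microRNAs with one seed share many targets. The T antigens bind and inactivate both RB and p53. Several microRNA families are tied to those pathways: the miR-17~92 cluster and its paralogues are transcribed under MYC and E2F, the miR-34 genes are transcriptional targets of p53, miR-449 shares the miR-34 seed and is an E2F target, and the let-7 family represses growth genes such as RAS, HMGA2 and LIN28. miR-142 and miR-223 are made almost entirely in blood cells, and miR-155 is induced in activated lymphocytes and macrophages.

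The mature sequences of the microRNAs on which the age comparison turns are given first, from RefSeq on GRCm38.p6, with the seed in capitals. The first pair had the 2 smallest p-values of all microRNAs tested at a mean of at least 10 RPM (reads of a microRNA per 1000000 microRNA reads of its library), and both mark leukocytes. miR-155-5p lies on chr16:84714143-84714165 (+) in an exon of the non-coding host gene Mir155hg, and miR-142a-3p on chr11:87756903-87756925 (+) in an intron of Mir142hg.
miR-155-5p: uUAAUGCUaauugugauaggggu
miR-142a-3p: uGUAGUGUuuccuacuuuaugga
Of the miR-17~92 family and its paralogues, 6 tested members share the seed AAAGUGC, and the 3 of them that were higher in every 30-week library follow. miR-17-5p (chr14:115043684-115043706, +) and miR-20a-5p (chr14:115044183-115044205, +) lie in an exon of Mir17hg, and miR-106b-5p (chr5:138165787-138165807, -) in an intron of Mcm7, which encodes a replication helicase subunit.
miR-17-5p: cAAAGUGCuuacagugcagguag
miR-20a-5p: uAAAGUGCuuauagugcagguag
miR-106b-5p: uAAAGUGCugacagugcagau
Shown next are microRNAs with the seed GGCAGUG, shared by p53-linked and E2F-linked genes. miR-34a-5p (chr4:150068473-150068494, +) lies in an exon of Gm37795 and miR-449a-5p (chr13:113037549-113037570, +) in an intron of Cdc20b.
miR-34a-5p: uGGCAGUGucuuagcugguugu
miR-449a-5p: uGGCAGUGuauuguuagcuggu
The miR-132/212 gene, a target of the transcription factor CREB, makes a pair with the seed AACAGUC from an intron of 1700016P03Rik (chr11:75173723-75173744 and chr11:75173443-75173464, both +). It is shown because all its tested products were higher at 30 weeks. miR-501-3p stands for a cluster in an intron of Clcn5, a chloride transporter gene (chrX:7241270-7241291, -).
miR-132-3p: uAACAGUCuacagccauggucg
miR-212-3p: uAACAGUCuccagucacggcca
miR-501-3p: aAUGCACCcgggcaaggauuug
On the lower side stood the let-7 seed GAGGUAG. let-7b-5p lies in an exon of Lncppara (chr15:85707325-85707346, +), let-7c-5p is encoded both there (chr15:85706616-85706637, +) and in an intron of Mir99ahg (chr16:77599672-77599693, +), and miR-98-5p in an intron of the ubiquitin ligase gene Huwe1 (chrX:151913229-151913250, +). miR-26a-5p, which represses the histone methyltransferase EZH2, is encoded in an intron of Ctdspl (chr9:119031811-119031832, +) and in an exon of Ctdsp2 (chr10:126995543-126995564, +).
let-7b-5p: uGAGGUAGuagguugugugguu
let-7c-5p: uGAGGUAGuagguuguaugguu
miR-98-5p: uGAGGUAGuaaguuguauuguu
miR-26a-5p: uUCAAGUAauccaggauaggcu
The last set is of microRNAs that were high in libraries 17 and 18 and not in library 16, chosen after their values were seen. miR-130b-3p (chr16:17124071-17124092, -, intron of 2610318N02Rik) and miR-301a-3p (chr11:87113054-87113076, +, intron of the spindle gene Ska2) share the seed AGUGCAA. miR-135a-5p has 2 loci (chr9:106154140-106154162, +, and chr10:92072141-92072163, -, in an intron of Rmst), miR-10b-5p lies between Hox genes in an intron annotated to Hoxd3 and Hoxd4 (chr2:74726074-74726096, +), and miR-499-5p in an intron of the myosin gene Myh7b (chr2:155622893-155622913, +).
miR-130b-3p: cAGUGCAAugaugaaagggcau
miR-301a-3p: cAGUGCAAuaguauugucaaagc
miR-135a-5p: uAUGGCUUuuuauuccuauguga
miR-10b-5p: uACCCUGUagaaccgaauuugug
miR-499-5p: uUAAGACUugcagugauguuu

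Values below are RPM unless a share or a log2 difference is named, and those of a microRNA are given for libraries 7, 8 and 9 (10 weeks), then for libraries 16, 17 and 18 (30 weeks). A value with ± is the log2 difference, 30 minus 10 weeks, with its standard error. The 10-week libraries held 6397370 to 10512950 microRNA reads and the 30-week libraries 11261059 to 15619692. The 10 most abundant microRNAs took 69.6 to 73.9% of reads, and 513 of the 1963 listed microRNAs had a mean of at least 1 RPM over the 6 libraries and were tested. Epithelial microRNAs were abundant in every library: miR-200b-3p lay between 22881 and 36017 RPM and miR-200a-3p between 22382 and 32039. The liver microRNA miR-122-5p reached at most 8.60.

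Library 16 stood apart from the other libraries of its age. Over the 155 microRNAs with a mean of at least 100 RPM, its log2 values correlated more closely with the 10-week libraries 7, 8 and 9 (r = 0.981, 0.960 and 0.944) than with the 30-week libraries 17 and 18 (r = 0.867 and 0.908). Libraries 17 and 18 correlated with each other at r = 0.992. These correlations are across microRNAs, which are not independent replicates. What sets library 16 apart was not tested, and the main counts below are also given without it.

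With all 6 libraries, none of the 513 microRNAs passed an adjusted p of 0.05 in limma's moderated test on log2(RPM + 1), that is 0.0%. The unadjusted p was under 0.05 for 107 (20.9%), of which 85 were higher (16.6%) and 22 lower (4.29%) at 30 weeks. edgeR's quasi-likelihood test on the recovered reads also called 0 of the same 513 (111 at an unadjusted p under 0.05, 21.6%), whereas DESeq2 called 74 (14.4%), of which 52 were higher (10.1%) and 22 lower (4.29%), and limma with all 36 libraries in the fit called 126 (24.6%). The 3 and 3 libraries did not overlap for 132 microRNAs (25.7%): 102 were higher in every 30-week library (19.9%) and 30 lower (5.85%). Without library 16, limma called 123 of 513 (24%), 99 higher (19.3%) and 24 lower (4.68%). Among the 99 higher, library 16 itself lay above all 10-week libraries for 45, within their range for 40 and below all of them for 14. Among the 24 lower, it lay below all 10-week libraries for 18. The scale matters for small differences: the median log2 difference over all 513 was 0.27 on the RPM scale and 0.05 with scaling by trimmed means (TMM), so 0.27 is the level against which each log2 difference below is read.

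**Figure D1:**
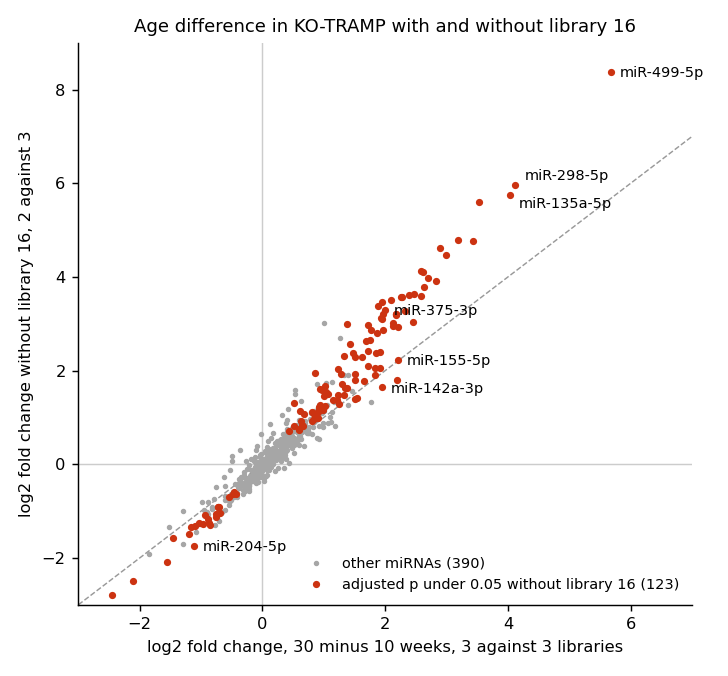
Log2 difference between 30 and 10 weeks for the 513 tested microRNAs, with all 6 KO-TRAMP libraries on the horizontal axis and without library 16 on the vertical axis. Red points are the 123 microRNAs with an adjusted p under 0.05 without library 16; miR-499-5p moved from 5.68 to 8.38 when library 16 was left out, while miR-155-5p stayed near 2.21.

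The leukocyte microRNA miR-155-5p had the smallest p of all 513. It measured 19.1, 24.4 and 35.5 RPM in libraries 7, 8 and 9 and 118, 124 and 124 in libraries 16, 17 and 18. All 3 libraries of 30 weeks, library 16 included, were thus far above those of 10 weeks, a ratio of means of 4.62 and a log2 difference of 2.21 ± 0.27 (SE; limma adjusted p = 0.06). Over the alternatives its adjusted p ranged from 3.19e-06 to 0.49. miR-142a-3p, restricted to blood cells, measured 84.9, 84 and 86 at 10 weeks and 497, 228 and 315 at 30 weeks. Here library 16 was the highest of the 6, and the log2 difference was 1.94 ± 0.30 (limma adjusted p = 0.079). The opposite arm of the same hairpin, miR-142a-5p, measured 285, 222 and 285, then 832, 301 and 484, and the neutrophil and monocyte microRNA miR-223-3p 8.16, 14.5 and 8.60, then 67.7, 19.9 and 35.9. miR-146b-5p, induced by NF-kB, measured 614, 674 and 554, then 1801, 743 and 1083. For each of these 3, library 16 was again highest and the 2 ages did not overlap. miR-342-3p, miR-150-5p and miR-146a-5p overlapped between the ages.

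As a list, 8 of 8 leukocyte microRNAs had a log2 difference above 0, and 5 of 8 did not overlap (19.9% of all tested were higher without overlap). The median over all tested was itself above 0, at 0.27, and the lowest of the 8 was 0.34, for miR-146a-5p. The median log2 difference of the list was 0.90, or 0.66 without library 16, against 0.27 and 0.28 over all microRNAs tested. No member passed the adjusted threshold with all libraries, and 2 did so without library 16, miR-155-5p and miR-142a-3p (19.3% of all tested were called higher). The leukocyte share of all microRNA reads was 0.345, 0.39 and 0.357% in libraries 7, 8 and 9 and 0.927, 0.348 and 0.529% in libraries 16, 17 and 18, so library 17 lay within the 10-week range (exact two-sided permutation test p = 0.3, where 3 against 3 libraries cannot go below 0.1). In bulk tissue, more cells of a type and more of the microRNA per cell cannot be told apart.

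In the miR-17~92 family, which E2F and MYC drive in dividing cells, 3 of the 6 tested members with the seed AAAGUGC were higher without overlap. miR-20a-5p measured 298, 289 and 288 RPM at 10 weeks and 498, 594 and 561 at 30 weeks. Its 10-week libraries were nearly equal, and the log2 difference was 0.91 ± 0.16 (limma adjusted p = 0.079). miR-106b-5p from the Mcm7 intron measured 167, 205 and 151, then 259, 338 and 315 (0.80 ± 0.21, limma adjusted p = 0.16), and miR-17-5p 209, 254 and 192, then 313, 342 and 378 (0.66 ± 0.19, limma adjusted p = 0.18). In all 3 the lowest 30-week library lay above the highest 10-week library. The ages overlapped in the other 3. miR-93-5p measured 1189, 1483 and 1042, then 1479, 1799 and 1905 (0.49 ± 0.20, limma adjusted p = 0.24). Differences below 0 were found for miR-20b-5p, which measured 22.7, 16.7 and 19.7, then 18.5, 9.57 and 12.4 (-0.55 ± 0.32, limma adjusted p = 0.34), and for miR-106a-5p, which measured 9.44, 8.09 and 8.91, then 8.61, 6.57 and 6.79 (-0.24 ± 0.27, limma adjusted p = 0.61). miR-18a-5p from the same transcript, with another seed, measured 4.08, 7.04 and 5.63, then 9.95, 19.6 and 18.7. The list as a whole did not go one way: 5 of 12 tested members were higher without overlap (19.9% of all tested), 3 passed without library 16 (miR-20a-5p, miR-106b-5p and miR-18a-5p, where 19.3% of all tested were called higher), 6 had a log2 difference above 0 and 6 below, and the median was 0.24. miR-92a-3p from the same transcript measured 922, 963 and 843, then 981, 785 and 942, and miR-25-3p from the Mcm7 intron 3727, 3677 and 2952, then 3540.2, 2499.7 and 2874, with overlap in both. Mature members of this family differ in few bases, so the assignment of reads between them is uncertain.

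The p53-linked miR-34 genes and their seed partner miR-449 had 7 of 7 log2 differences above 0, 4 of 7 without overlap (19.9% of all tested), and a median of 1.39. The median over all tested was 0.27, and the lowest of the 7 was 1.07, for miR-34c-3p. miR-34c-5p measured 22.3, 62.8 and 55 RPM at 10 weeks and 142, 166 and 160.1 at 30 weeks, a log2 difference of 1.84 ± 0.40 (limma adjusted p = 0.12). miR-34a-5p, from a separate locus, measured 16.1, 40.3 and 32.7, then 89.3, 63.6 and 71.8 (1.39 ± 0.38, limma adjusted p = 0.17). For both, all 3 libraries of 30 weeks, library 16 included, lay above those of 10 weeks, among which library 7 was the lowest. miR-34b-5p and miR-34b-3p, from the transcript that also holds miR-34c, were likewise higher in each 30-week library. The share of reads of the list was 0.0052, 0.0124 and 0.0112% at 10 weeks and 0.0259, 0.037 and 0.0334% at 30 weeks (exact two-sided permutation test p = 0.1, the smallest that 3 against 3 libraries allow). miR-449a-5p behaved differently between libraries: it measured 8.80, 9.04 and 11.9 at 10 weeks and 1.95, 106 and 69.3 at 30 weeks, with library 16 the lowest of the 6 and libraries 17 and 18 above all 30 libraries of the other lines, which lay between 0.366 and 25.7. Without library 16, 3 of the 7 passed (miR-34c-5p, miR-449a-5p and miR-449c-5p), against 19.3% of all tested called higher.

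Further microRNAs with small p-values in the direction of 30 weeks were miR-340-5p and miR-532-5p. miR-340-5p measured 1199, 742 and 868, then 2058, 1486 and 1940.5 (0.98 ± 0.24, limma adjusted p = 0.15), and miR-532-5p 229, 274 and 269, then 351, 636 and 493 (0.90 ± 0.26, limma adjusted p = 0.18). Neither pair of ages overlapped. miR-532-5p sits in the cluster on chrX:7237695-7248440 within the Clcn5 gene, and its neighbours, picked out after their values were seen, were higher as well: of 7 tested products with a RefSeq locus there, 6 did not overlap (19.9% of all tested were higher without overlap), 5 passed without library 16 (19.3% of all tested), and the median log2 difference was 1.33. miR-501-3p from this cluster measured 34.4, 30.4 and 30.3 at 10 weeks and 62.8, 146 and 131 at 30 weeks (1.71 ± 0.35, limma adjusted p = 0.12), and miR-362-5p 12.6, 28.1 and 14.2, then 34.5, 107 and 84.4. Library 16 was the lowest of its age for both. miR-500-3p, in the same cluster, overlapped, with 7.52, 10.9 and 6.72, then 12.7, 8.36 and 12.6.

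The CREB-driven miR-132/212 locus (chr11:75173403-75173744) had 4 of 4 tested products higher without overlap (19.9% of all tested) and past the threshold without library 16 (19.3% of all tested), with a median log2 difference of 1.74. It too was picked out after its values were seen. miR-132-3p measured 18.9, 34.4 and 23.8, then 68.6, 83.9 and 91.3 RPM (1.66 ± 0.29, limma adjusted p = 0.079). miR-132-5p measured 4.59, 9.80 and 4.53, then 17, 30.8 and 24.9, miR-212-3p 1.15, 2.66 and 2.03, then 5.33, 6.09 and 6.02, and miR-212-5p 2.17, 4.19 and 2.81, then 8.79, 37 and 26.8. Library 16 lay above the 10-week libraries in each and was the lowest of its age in each. Of 34 clusters with at least 3 tested members, 3 others were picked out for having at least 3 members past the threshold without library 16, which describes the choice and is no test of them: miR-130b/301b on chr16:17124071-17124477 (3 of 3), miR-296/298 on chr2:174267058-174267575 (3 of 3) and miR-23b/27b/24-1 on chr13:63300492-63301272 (4 of 5).

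**Figure D2:**
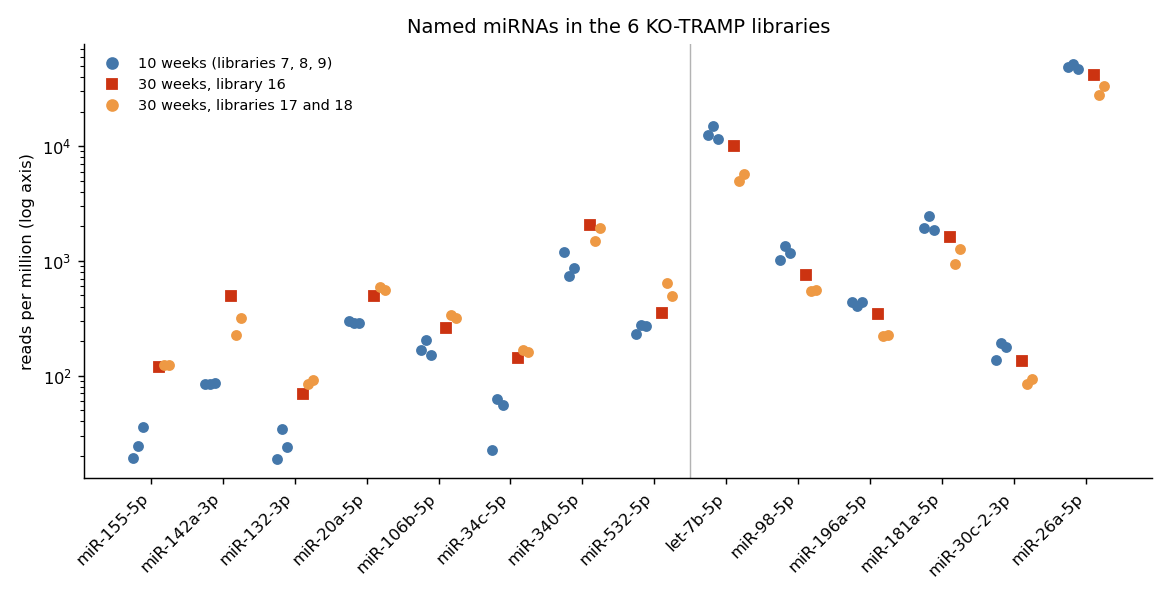
RPM (log axis) of 14 named microRNAs in the 6 KO-TRAMP libraries; the 8 to the left of the vertical line were higher at 30 weeks and the 6 to the right lower. For miR-155-5p the 30-week libraries lie between 118 and 124 and the 10-week libraries between 19.1 and 35.5, and for let-7b-5p library 16 lies at 10104, between the other libraries of 30 weeks and those of 10 weeks.

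let-7 microRNAs stood lower at 30 weeks, though no member passed with all libraries. miR-98-5p, a let-7 family member, measured 1016, 1355 and 1165 RPM at 10 weeks and 748, 549 and 552 at 30 weeks, a log2 difference of -0.94 ± 0.21 (limma adjusted p = 0.12). let-7b-5p measured 12610.2, 14977 and 11585, then 10104, 5015 and 5668 (-0.98 ± 0.29, limma adjusted p = 0.18), and let-7c-5p 37799.6, 34537 and 34855, then 30626, 25173 and 22354 (-0.47 ± 0.18, limma adjusted p = 0.23). The 30-week libraries of all 3 lay below the 10-week libraries, with library 16 the nearest to them. let-7i-5p and let-7g-5p also did not overlap, so that 5 of 9 tested members were lower in every 30-week library (5.85% of all tested). Of the 9, 8 had a log2 difference below 0, where the median over all tested was 0.27. The exception, let-7e-5p, measured 548, 579 and 639, then 549.5, 790.1 and 649. The median log2 difference of the list was -0.46 (-0.63 without library 16, where 5 of 9 passed, against 4.68% of all tested called lower). As a share of all microRNA reads, let-7 and miR-98 made up 16.2, 14.7 and 15.6% at 10 weeks and 13.8, 10.7 and 9.81% at 30 weeks, without overlap (exact two-sided permutation test p = 0.1, the smallest possible). let-7 members differ in few bases, and reads may be split among them.

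The other abundant microRNAs lower at 30 weeks came from several families. miR-26a-5p measured 49068, 52313 and 47218, then 41434, 28085 and 33215 RPM (-0.55 ± 0.20, limma adjusted p = 0.21), and miR-196a-5p, encoded in the Hox clusters, 438, 405 and 435, then 342, 221 and 228 (-0.72 ± 0.22, limma adjusted p = 0.19). miR-181a-5p measured 1926, 2458 and 1865, then 1620.3, 937 and 1273 (-0.73 ± 0.25, limma adjusted p = 0.21), and miR-30c-2-3p 137, 191 and 178, then 133, 84.2 and 93.1 (-0.72 ± 0.26, limma adjusted p = 0.21). In these 4 the ages did not overlap and library 16 lay nearest to the 10-week libraries. All 4 passed without library 16, where 4.68% of all tested were called lower, but they had been named for small p-values in these same libraries. Below the level of 100 RPM, and chosen after its values were seen, miR-3473e measured 21.9, 17 and 20.2 at 10 weeks and 5.06, 1.38 and 2.75 at 30 weeks without overlap (-2.45 ± 0.40, limma adjusted p = 0.079).

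**Figure D3:**
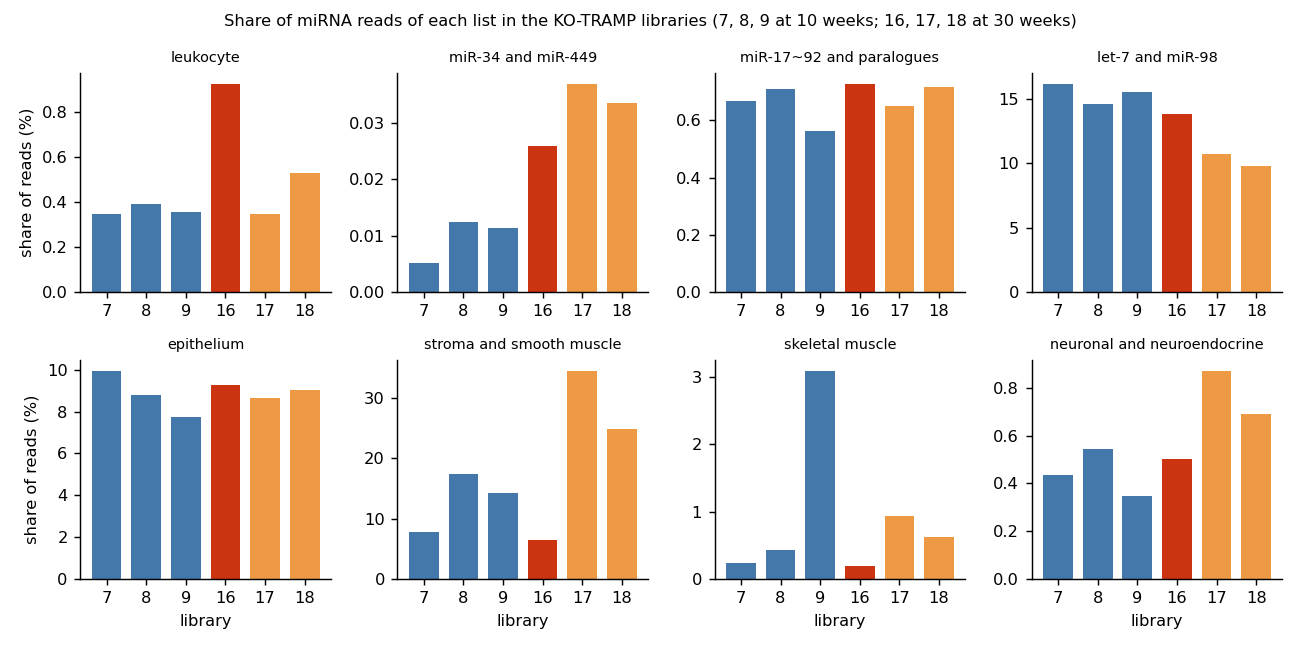
Share of all microRNA reads (%) taken by 8 lists of microRNAs in libraries 7, 8 and 9 (10 weeks) and 16, 17 and 18 (30 weeks); each bar is 1 library and each panel has its own axis from 0. The let-7 and miR-34/449 shares do not overlap between ages, the leukocyte share is highest in library 16 at 0.927%, and the stroma share is lowest in library 16 at 6.46%.

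Libraries 17 and 18 held a set of microRNAs at levels found in no other library, and library 16 did not. These were picked out after their values were seen and are given as values. miR-499-5p, from the intron of a slow muscle myosin gene, measured 0.383, 1.43 and 0 RPM in libraries 7, 8 and 9 and 0.799, 621 and 399.7 in libraries 16, 17 and 18 (5.68 ± 2.15, limma adjusted p = 0.22; the 0 reads of library 9 allow up to 0.469 RPM). In the 30 libraries of other lines it lay between 0.393 and 106. Other muscle microRNAs went with it in part or not at all. miR-206-3p, specific to skeletal muscle, measured 13.3, 41.4 and 981, then 24.4, 20.3 and 22.1, with libraries 17 and 18 below library 16. miR-1a-3p measured 2167, 3495 and 27322, then 1649, 8399 and 5318, with libraries 17 and 18 above libraries 7, 8 and 16. Library 9 was the highest in both. miR-135a-5p measured 5.23, 8.18 and 19.5, then 15.3, 672 and 472, against at most 213 elsewhere. miR-298-5p measured 0.383, 4 and 2.34, then 2.84, 194 and 161, against at most 22.9 elsewhere, in the shallowest library of the series.

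Hox-embedded miR-10b-5p, among the more abundant microRNAs, measured 1412, 3257 and 5979 at 10 weeks and 1803, 41894 and 28319 at 30 weeks, and the other 30 libraries lay between 1794 and 22357. It differs from miR-10a-5p in few bases. miR-375-3p, known from pancreatic islets, neuroendocrine cells and prostate epithelium, measured 1069, 737 and 1125, then 622, 10627 and 8443, against 325 to 4826 elsewhere. miR-181d-5p measured 48.3, 123 and 126, then 66.5, 984 and 651, against at most 379 elsewhere. In each of these 3, library 16 lay within or below the 10-week range. miR-130b-3p measured 2.30, 2.85 and 1.25, then 3.29, 23.8 and 21.3 (others 0 to 8.47), and miR-301a-3p with the same seed 0.51, 2.28 and 0.782, then 1.78, 23 and 15.4 (others at most 2.74). With all libraries the limma adjusted p of these 8 microRNAs ranged upwards from 0.21 (miR-130b-3p).

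**Figure D4:**
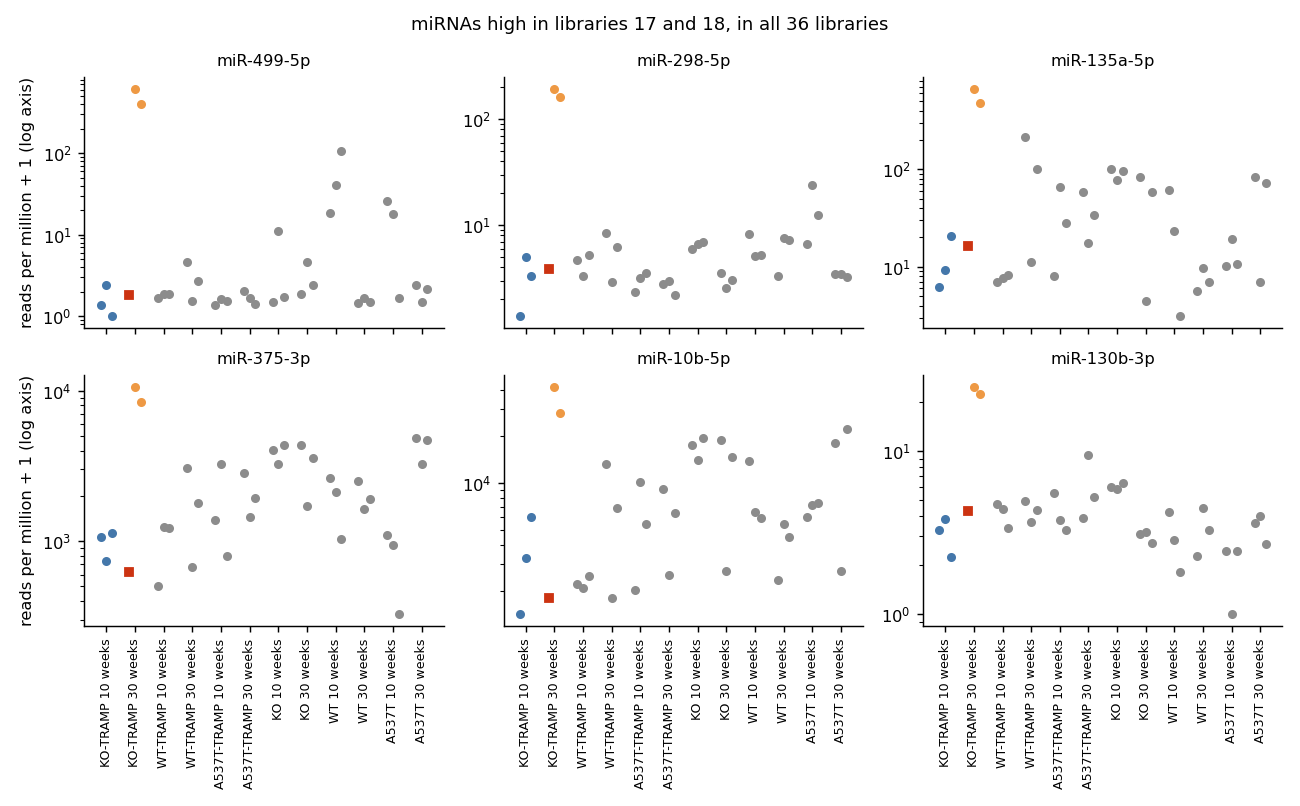
RPM + 1 (log axis) of 6 microRNAs in all 36 libraries by group; KO-TRAMP libraries are coloured and the other groups grey. In every panel libraries 17 and 18 lie above every other library, and library 16 lies near the 10-week KO-TRAMP libraries: for miR-375-3p it measured 622 RPM against 10627 and 8443.

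Marker lists of other cell types give the background to these values. Neuronal and neuroendocrine microRNAs had 8 tested members, of which 1 did not overlap (19.9% of all tested were higher without overlap): miR-7a-5p, abundant in neuroendocrine cells, measured 4197, 4382 and 3251, then 4925, 7183 and 5855 RPM (0.60 ± 0.21, limma adjusted p = 0.21). miR-9-5p measured 138, 645 and 182, then 84.5, 895 and 651, and miR-129-5p 6.76, 72.9 and 9.69, then 1.24, 167 and 131: in both, library 8 at 10 weeks stood nearest to libraries 17 and 18. The neuron-specific miR-124-3p was at or near 0 in 5 of the 6 libraries and measured 9.70 in library 8. The share of reads of this list was 0.437, 0.543 and 0.347% at 10 weeks and 0.503, 0.874 and 0.692% at 30 weeks, with library 16 within the 10-week range. Their part in the age difference was not tested.

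Epithelial microRNAs differed little as a group, with a share of 9.97, 8.81 and 7.73% at 10 weeks and 9.30, 8.68 and 9.06% at 30 weeks and a median log2 difference of 0.14 over 11 members, 3 of them higher without overlap (19.9% of all tested). miR-203-3p, which restrains epithelial stem cells, measured 831, 812 and 791, then 984, 2257 and 1705, and miR-182-5p and miR-96-5p of the miR-183 cluster were the other 2. Stromal and smooth muscle microRNAs had a wide spread: their share was 7.69, 17.4 and 14.3% at 10 weeks and 6.46, 34.6 and 24.9% at 30 weeks, set mainly by miR-143-3p, which measured 69928, 156997 and 129911, then 53618, 330631 and 233706 RPM. None of the 7 stromal members was without overlap. The skeletal muscle share was 0.238, 0.433 and 3.10% and 0.187, 0.937 and 0.615%, highest in library 9. Counting intervals (95%, Wilson) on these shares reach at most 0.037 percentage points to either side and cover counting error only.

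The most abundant microRNA, miR-148a-3p, measured 313900, 225711 and 242912 RPM at 10 weeks and 260669, 103939 and 152485 at 30 weeks (-0.69 ± 0.36, limma adjusted p = 0.31). The ages overlapped through library 16. miR-21a-5p, raised in many tumours, measured 108772, 92291 and 88088, then 182814, 70280.4 and 115988, with library 16 the highest and library 17 the lowest of all 6. Among the 10 most abundant, miR-26a-5p and let-7c-5p did not overlap, whereas miR-148a-3p, miR-143-3p, miR-21a-5p, let-7f-5p, miR-200b-3p, miR-200a-3p, miR-99a-5p and miR-27b-3p did. Over all tested, 19.9% were higher and 5.85% lower without overlap. Of the remaining lists, the miR-15, miR-16, miR-322 and miR-503 list had 4 of 11 higher without overlap (median 0.55), growth-promoting prostate cancer microRNAs 1 of 8 (median 0.32), tumour suppressor microRNAs of prostate 2 of 10 higher and 1 lower (median 0.09), the Dlk1-Dio3 imprinted region 2 of 32 (median 0.30), and the Sfmbt2 intronic cluster 1 of 8 lower (median 0.05). Red cell and endothelial microRNAs had 0 of 5 and 0 of 2 without overlap. Of the 6 microRNAs that the study names, 2 were lower without overlap, miR-669c-5p with 7.65, 16.9 and 15, then 6.22, 6.33 and 5.44 and miR-676-5p with 25, 36.5 and 33, then 24.2, 17 and 19.2. Neither passed the adjusted threshold with or without library 16.

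The age difference of KO-TRAMP was then set against that of the other lines, with no library shared between them. Against KO without the transgene, the age differences themselves differed for 115 of 520 microRNAs (22.1%; limma adjusted p under 0.05 for the difference): 106 were more positive in KO-TRAMP (20.4%) and 9 more negative (1.73%). This split depends on scale, since the median difference over all 520 was 0.62: with median-of-ratios scaling it was 52 more positive (10%) and 51 more negative (9.81%). Leaving out 1 library gave 26 (without library 18) to 230 (without library 16, 44.2%), and counts of 67 or fewer also followed without library 7, 9, 17, 24, 32 or 33, at 66, 67, 55, 60, 45 and 44, and 73 without library 31.

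The microRNAs with the smallest adjusted p in that comparison were miR-299a-3p, miR-34c-5p, miR-379-5p, miR-34a-5p and miR-132-3p, each at a limma adjusted p of 0.0099, and each passed under every alternative run (adjusted p of at most 0.034). miR-34a-5p measured 402, 475 and 448 RPM in KO at 10 weeks and 249.7, 173 and 239.7 in KO at 30 weeks, while KO-TRAMP went from 16.1, 40.3 and 32.7 to 89.3, 63.6 and 71.8. The difference of the log2 age effects was 2.40 ± 0.42, and at both ages the KO libraries without the transgene lay above the KO-TRAMP libraries. miR-34c-5p measured 91.8, 101 and 106 at 10 weeks and 59, 38 and 49.4 at 30 weeks in KO (2.87 ± 0.47), so it was lower at 30 weeks in KO and higher in KO-TRAMP. miR-132-3p measured 29.2, 29.5 and 34.7 at 10 weeks and 31.9, 23 and 27.8 at 30 weeks in KO (1.83 ± 0.34).

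miR-299a-3p and miR-379-5p lie in the Dlk1-Dio3 imprinted region, whose microRNAs are made from the maternal chromosome. In KO, miR-299a-3p measured 18.1, 20.04 and 16.3 at 10 weeks and 5.48, 6.17 and 5.56 at 30 weeks, while in KO-TRAMP it measured 7.01, 8.56 and 9.69, then 15.1, 11.1 and 12 (2.05 ± 0.29). miR-379-5p measured 362, 420.3 and 285 at 10 weeks and 107, 121 and 96.1 at 30 weeks in KO and 135, 247 and 203, then 218, 246 and 244 in KO-TRAMP (2.01 ± 0.33). The KO libraries were about 3 times lower at the later age and the KO-TRAMP libraries were not. Shares of marker lists also differed by age in KO without overlap. Stromal and smooth muscle microRNAs took 30.85 to 36.5% of reads at 10 weeks and 13.05 to 30.1% at 30 weeks in KO, and red cell microRNAs 0.162 to 0.184%, then 0.0327 to 0.133%. Neuronal and neuroendocrine microRNAs took 0.41 to 0.542%, then 0.237 to 0.262%, and epithelial microRNAs 6.25 to 6.46%, then 7.86 to 10.4%. In KO-TRAMP the red cell share was 0.0159 to 0.0458%, then 0.0169 to 0.0428%, and it overlapped between ages, as did the stromal, neuronal and epithelial shares given above. Their part in the difference between the lines was not tested. The microRNA genes of the Dlk1-Dio3 region lie close together on chromosome 12, so its members are not separate observations. Of 33 members of this region tested over the 12 libraries, 28 had a more positive age difference in KO-TRAMP past the threshold (20.4% of all tested), with a median difference of 1.90 against 0.62 over all. With median-of-ratios scaling these were 19 of 33 (10% of all tested) and 1.35. Leaving out 1 library gave 8 (without library 18) to 31 of 33, with 17, 15, 18, 11 and 15 without library 9, 17, 24, 32 or 33. The counts over all tested without the same libraries, given above, moved widely too. Without library 16, 31 of 33 passed, and 44.2% of all tested did so in either direction. Without library 18 the median difference of the region was 1.86, against 0.56 over all. Within KO-TRAMP itself the region was near the median of all microRNAs, as given above. In WT-TRAMP, which also carries the transgene, the region took 0.206 to 0.262% of reads at 10 weeks and 0.0946 to 0.121% at 30 weeks. The median log2 age effect of the region was -1.07 in WT-TRAMP, -0.23 in A537T-TRAMP and -1.70 in KO. miR-34 and miR-449 had 4 of 7 more positive past the threshold and leukocyte microRNAs 4 of 8 (20.4% of all tested), or 3 and 2 with median-of-ratios scaling (10% of all tested). Against the same shares, the miR-15, miR-16, miR-322 and miR-503 list had 6 of 11, or 0 with that scaling. The miR-17~92 list had 5 of 12 and 1 more negative, or 1 and 3, and growth-promoting microRNAs 3 of 8 and 0, or 1 and 3. let-7 and miR-98 had 0 of 9 under the reported settings, but 8 of 9 more negative with median-of-ratios scaling (9.81% of all tested).

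Against WT-TRAMP, none of 512 differences of age effects passed (0.0%, with 101 or 19.7% at an unadjusted p under 0.05), and leaving out library 16 or library 8 gave 73 (14.3%) and 43. miR-299a-3p had the smallest p among microRNAs with a mean of at least 10 RPM, with a difference of 1.42 ± 0.29 (limma adjusted p = 0.095). Against A537T-TRAMP, none of 512 passed either (47 at an unadjusted p under 0.05, 9.18%), and 60 did without library 16 (11.7%). edgeR called 0 in both comparisons, and DESeq2 called 24 and 19. The smallest p there belonged to miR-335-3p, at 2.57 ± 0.75 (limma adjusted p = 0.45).

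Each line's own age effect is given side by side, and only the differences above were tested. Of the 5 microRNAs that differed from KO, miR-34c-5p was higher at 30 weeks by a log2 of 1.84 in KO-TRAMP, 2.25 in WT-TRAMP (limma adjusted p = 0.0088) and 1.46 in A537T-TRAMP (0.062), and differed by -1.03 in KO (0.0070). miR-34a-5p differed by 1.39, 0.81 (0.084), 1.35 (0.14) and -1.01 (0.0058) in the same order of lines, and miR-132-3p by 1.66, 1.29 (0.0051), 0.90 (0.25) and -0.18 (0.47). The sign of all 3 was thus the same in the 3 lines with the transgene. miR-299a-3p differed by 0.54, -0.88 (0.019), 0.13 (0.85) and -1.50 (0.00067), and miR-379-5p by 0.31, -0.57 (0.065), -0.19 (0.76) and -1.69 (0.00070), so that WT-TRAMP shared its sign with KO for these 2. miR-155-5p was higher at 30 weeks by a log2 of 2.21 in KO-TRAMP, 1.19 in WT-TRAMP (limma adjusted p = 0.011), 1.63 in A537T-TRAMP (0.048) and 0.70 in KO (0.025). miR-142a-3p was higher by 1.94, 1.19 (0.033) and 1.80 (0.048) in the 3 TRAMP lines in the same order, and by 0.05 in KO. let-7b-5p differed by -0.98 in KO-TRAMP, -0.84 in WT-TRAMP (limma adjusted p = 0.019), -0.22 in A537T-TRAMP and 0.01 in KO, and miR-98-5p by -0.94, -1.05 (0.012), -0.76 and -0.58 (0.027). miR-20a-5p differed by 0.91, 0.04, 1.02 and -0.32, with no adjusted p under 0.05. In WT-TRAMP 104 of 505 microRNAs passed (20.6%), in KO 127 of 504 (25.2%) and in A537T-TRAMP 5 of 496 (1.01%).

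**Figure D5:**
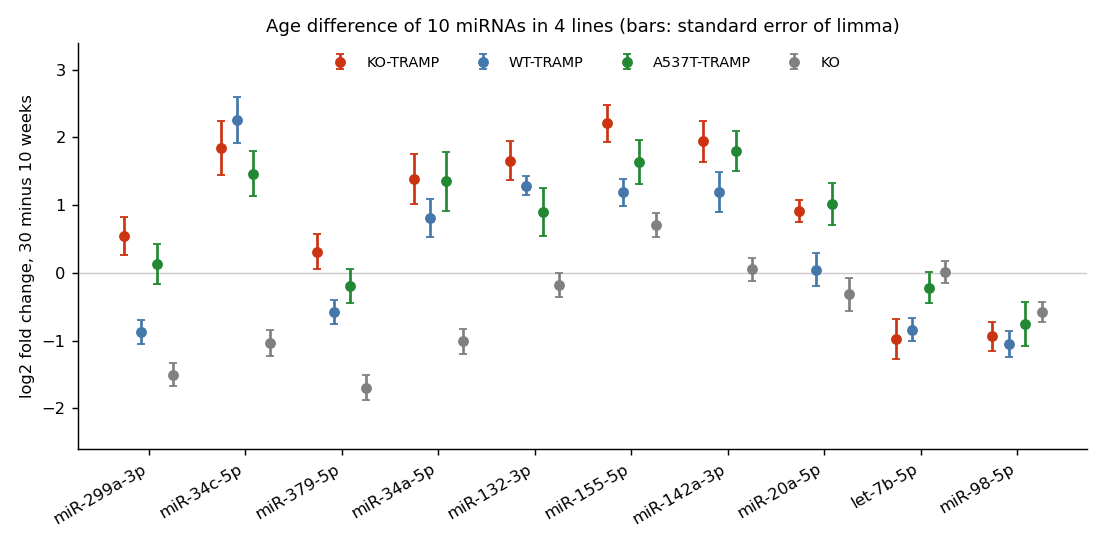
Log2 difference between 30 and 10 weeks of 10 named microRNAs in KO-TRAMP, WT-TRAMP, A537T-TRAMP and KO, with bars for the standard error of limma. miR-34a-5p lies at 1.39 in KO-TRAMP and at -1.01 in KO, and miR-155-5p lies above 0 in all 4 lines.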

How the data were processed

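The deposited values are normalised read signal: per miRNA, the authors divided read counts by DESeq2 size factors. Small RNA reads were quantified with mirDeep2 against miRBase on the mouse genome (GRCm38, mm10), and each of 8 tables was normalised over its own 6 libraries. Whole reads could be recovered from these values for 35 of 36 libraries (100.0% of values within 0.01 of a whole number). Tables of the authors' own comparisons (fold changes and s-values) and 2 lists of merged names were not used. Because the ages sit in separately normalised tables, each column was divided by its sum and multiplied by 1000000 (RPM). limma 3.58.1 (R 4.3.3) with a variance trend was fitted to log2(RPM + 1) of microRNAs with a mean of at least 1 RPM. Tests were two-sided with Benjamini-Hochberg adjustment and a threshold of 0.05. Differences between lines were interaction terms over 12 libraries. DESeq2 1.42.0 and edgeR 4.0.16 on recovered reads were alternatives. On simulated data with 4-fold changes, 154 of 196 changed microRNAs of the KO-TRAMP comparison were recovered (78.6% of those among 499 tested). There were 9 false calls. The number of changed microRNAs was set by the simulation, whereas limma called 0 of 513 in the real libraries. The 78.6% therefore holds for the simulated data only and is no estimate of power in the real libraries. Sequences and loci came from RefSeq (445 of 513 tested microRNAs matched) and host genes from a GENCODE annotation of the same build. A count of 0 allows up to 3 reads, at most 0.469 RPM in the 6 libraries, counting error only.

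Libraries are called by the number in their column header. Columns carry no replicate number, and their group rests on the name of the table. The members, lists and tests were chosen with earlier results of these data known. Named microRNAs were the 6 with the smallest p in each direction at a mean of at least 100, the 10 most abundant, list members, those the study names, and the smallest p of each comparison between lines. Clusters were genes within 10 kb on the same strand.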

Additional observations from a re-analysis of the deposited data

Results flagged for a closer look

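The age difference of KO-TRAMP differed from that of KO, by a test of the difference itself, for 115 of 520 microRNAs (22.1%). The named ones, with the difference of log2 age effects (KO-TRAMP minus KO), were miR-34c-5p at 2.87, miR-34a-5p at 2.40, miR-299a-3p at 2.05, miR-379-5p at 2.01 and miR-132-3p at 1.83. Each difference was positive under every alternative run. The count of 115 moved with the processing. It held 106 more positive and 9 more negative differences, or 52 and 51 with median-of-ratios scaling. The median difference over all 520 was 0.62 under the reported settings. Without library 16 the count was 230 (44.2%), and it fell without several other single libraries, as given above. In KO the libraries of both ages lack the transgene, while in KO-TRAMP both carry it. In WT-TRAMP, which also carries the transgene, the log2 age effects were 2.25 for miR-34c-5p, 0.81 for miR-34a-5p and 1.29 for miR-132-3p, and -0.88 for miR-299a-3p and -0.57 for miR-379-5p.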

How the results depend on the processing

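For the KO-TRAMP age comparison, 0 microRNAs passed with all 6 libraries under the reported settings, with a pseudocount of 10, with no filter, with scaling by median of ratios or trimmed means, without the variance trend, after thinning to equal depth and in edgeR. Counts moved with a minimum mean of 10 (1 higher), with all 36 libraries in the fit (103 higher and 23 lower) and in DESeq2 (52 and 22). Leaving out 1 library gave 0 to 99 higher and 0 to 24 lower, the highest without library 16. Against WT-TRAMP the count was 1 with a pseudocount of 10, 3 without the trend, 17 with all 36 libraries, 24 in DESeq2 and 0 to 73 leaving out 1 library. Against A537T-TRAMP it was 19 in DESeq2 and 0 to 60 leaving out 1 library. Against KO it was 57 with no filter, 66 with a minimum mean of 10, 177 with all 36 libraries and 26 to 230 leaving out 1 library. The number of lists whose shares did not overlap between ages was 2 of 17, and 2 to 7 leaving out 1 library. Of 822 values of 52 of the named microRNAs under alternatives, 821 kept their direction, 109 of them newly past the threshold (39 of these without library 16). The log2 difference of miR-143-3p, 0.51 with all libraries, turned to -0.00799 without library 17 and was 1.304 without library 16. Many of the 52 were picked for small p-values or for their values, and not every microRNA given above is among them. Outside the 52, others changed sign without library 16: miR-21a-5p from 0.25 to -0.088, miR-146a-5p from 0.34 to -0.089 and miR-1a-3p from -0.50 to 0.18. The causes were not tested beyond the library left out. Results without library 16 for lists and clusters were added after seeing the data, and they rest on 2 libraries at 30 weeks. Count tests, trimmed means and thinning were not run against KO, since reads of library 33 could not be recovered. No paired analysis was possible because the columns carry no replicate numbers.

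With 3 libraries a group, an exact test cannot go below 0.1, and 1 library decides most counts.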
